A study of Mus musculus with 3 samples.

Results

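The 10 genes described here code for structural parts of the basement membrane. They are the type IV collagen chains Col4a1, Col4a2, Col4a5 and Col4a6, the collagens Col15a1 and Col18a1, the laminin chains Lama2, Lama4 and Lamc1, and the perlecan core protein Hspg2. They were taken by name from the gene rows of the deposited table, where 10 of the 9781 rows used are theirs. Their levels were described across cells classed by other genes as epithelium, fibroblasts, smooth muscle and endothelium, and across the 3 sets of cell barcodes in the table.

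Single cell RNA-seq was done on normal male mouse urogenital sinus (UGS, the embryonic tissue that gives rise to the prostate) at E18.5 (embryonic day), and on normal mouse prostate at postnatal days 14 and 35. Each group had 1 library. The labels used here give no strain or genotype for these samples. The study's methods describe its mice as a C57BL/6 and 129S1/SvImJ mixture and list lines with the reporter allele R26mTmG, Osr1-Cre or PBCre and a human androgen receptor transgene, without saying which of them, if any, gave these 3 libraries. The cells sat in 1 table in which barcodes end in 1, 2 or 3, and no label ties an ending to an age. The endings are called set 1, set 2 and set 3 here, their values stand side by side, and no age was compared with another.

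A basement membrane is a thin sheet of matrix that underlies epithelium and endothelium and wraps muscle fibres, fat cells and Schwann cells. Laminins polymerise at the cell surface, type IV collagen forms a separate, crosslinked network, and perlecan and the collagens XV and XVIII join the sheet to its surroundings. Type IV collagen is secreted as trimers, of which the one made of alpha 1 and alpha 2 chains occurs in nearly all basement membranes, while the one made of alpha 5 and alpha 6 chains has a narrower distribution that includes smooth muscle and some epithelia. In glands the sheet lies between basal epithelium and stroma and can be built by the cells on both sides.

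The type IV collagen genes lie in head-to-head pairs, and the 4 windows of 300 bases around their starts (250 before and 50 from the start on, RefSeq, GRCm38.p6) show how differently the pairs are spaced. Col4a1 and Col4a2 lie on chromosome 8, where the windows at chr8:11312777-11313076 (minus strand) and chr8:11312555-11312854 (plus strand) share 78 bases, in capitals below and written on opposite strands.
Col4a1: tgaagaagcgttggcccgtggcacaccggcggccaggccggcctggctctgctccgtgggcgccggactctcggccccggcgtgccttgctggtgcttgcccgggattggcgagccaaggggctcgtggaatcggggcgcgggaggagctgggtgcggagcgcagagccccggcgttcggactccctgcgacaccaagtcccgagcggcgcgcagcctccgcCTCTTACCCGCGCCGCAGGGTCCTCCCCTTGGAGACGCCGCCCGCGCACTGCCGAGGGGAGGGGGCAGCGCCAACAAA
Col4a2: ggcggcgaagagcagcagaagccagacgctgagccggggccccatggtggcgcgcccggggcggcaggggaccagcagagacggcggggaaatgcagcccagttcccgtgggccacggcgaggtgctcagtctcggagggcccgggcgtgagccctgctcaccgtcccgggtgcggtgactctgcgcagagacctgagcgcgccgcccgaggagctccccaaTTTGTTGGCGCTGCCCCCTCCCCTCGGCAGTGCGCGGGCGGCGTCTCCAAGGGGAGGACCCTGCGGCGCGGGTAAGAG
Col4a5 and Col4a6 lie on chromosome X, with starts 1343 bases apart and windows at chrX:141475169-141475468 (plus strand) and chrX:141474027-141474326 (minus strand) that share no base. Capitals mark matches to GGGCGG (the core of a GC box) or CCAAT on either strand.
Col4a5: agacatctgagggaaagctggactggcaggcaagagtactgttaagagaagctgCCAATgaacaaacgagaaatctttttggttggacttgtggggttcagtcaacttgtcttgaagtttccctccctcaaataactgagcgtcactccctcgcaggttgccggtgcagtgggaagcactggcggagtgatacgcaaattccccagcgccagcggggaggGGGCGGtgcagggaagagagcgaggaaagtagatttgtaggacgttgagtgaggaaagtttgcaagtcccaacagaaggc
Col4a6: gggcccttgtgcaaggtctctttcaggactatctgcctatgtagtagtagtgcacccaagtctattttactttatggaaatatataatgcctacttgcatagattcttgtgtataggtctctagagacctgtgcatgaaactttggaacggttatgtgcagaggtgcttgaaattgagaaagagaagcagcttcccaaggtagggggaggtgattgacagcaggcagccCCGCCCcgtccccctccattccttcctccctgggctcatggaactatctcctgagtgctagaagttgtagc

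Windows were given for 8 of the 10 members, and Col18a1 had 2 of them, while Lama4 and Lamc1 had none. GGGCGG was found in 7 of these 9 windows and in 35.7% of all 32851 windows, CCAAT in 4 of 9 and 37.4%, and TATAAA in 0 of 9 and 13.6%, on both strands and with 0 overlaps between matches of different motifs in the printed windows. The only GGGCGG match of the Col4a1 window lies in the bases shared with the Col4a2 window, so 1 site counts in both. G and C made up 74% and 73.7% of the Col4a1 and Col4a2 windows, 52.7% and 48.3% of those of Col4a5 and Col4a6, and 52.7% at the median of all windows. These matches describe letters and were not tested as binding sites.

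Set 1 had 766 cells with a median of 19357 UMIs per cell (a UMI marks 1 captured mRNA molecule), against 5350 cells with a median of 1738 in set 2 and 8360 kept cells with a median of 1801 in set 3. After clustering without the members, epithelium-like cells numbered 150, 1447 and 2793 in sets 1, 2 and 3, and fibroblast-like cells 382, 1790 and 2685. Smooth muscle-like cells numbered 74, 1633 and 1960, and endothelium-like cells 37, 96 and 199. The endothelium-like cluster carried all 15 endothelial markers with a row, with a summed level of 6633, 6124 and 5689.7 UMIs per 1000000 UMIs of its cells (CPM) against 14.9, 42.5 and 17.5 in epithelium-like cells. Epithelial markers summed to 10674, 6406 and 6692 CPM in epithelium-like and 62.1, 289 and 96.1 CPM in fibroblast-like cells. The smooth muscle-like cluster carried 10 of 11 smooth muscle markers with a row, led by Actg2, Myl9 and Tpm2. Its 10 leading genes also held Tnnt2, Tnnc2, Tnnt1 and Actc1, which are troponin and actin genes known from striated muscle. It carried 7 of 14 fibroblast markers too, whose summed level was 5580.3, 5858 and 3838 CPM there against 16282, 16154 and 22209.6 in fibroblast-like cells. Its smooth muscle markers summed to 5496, 28707 and 28478 CPM and erythroid markers to 5405, 56.8 and 9.17 CPM, so in set 1 muscle markers were no higher than fibroblast markers in this class and erythroid RNA was as high. The endothelium-like cluster also held 41.8, 1194 and 2019 CPM of epithelial, 801, 4886 and 1924 CPM of smooth muscle, 304, 1738 and 1266 CPM of fibroblast and 126, 4195 and 7.14 CPM of erythroid markers, and in sets 2 and 3 at most 1 epithelial marker was at 0. The part of such shared RNA in the values below was not tested. Sets 1 and 2 shared 1 barcode, sets 1 and 3 shared 0, and sets 2 and 3 shared 13.

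Leukocyte-like cells (38, 25 and 178), which are not a usual source of basement membrane, served to show free RNA or mixed droplets, and the 3 sets differed there. No member was above 4.17 CPM in those cells in set 1, where 7 of the 10 had 0 UMIs, taken as 6.26 CPM by a floor of 3 UMIs. In set 2, by contrast, they held 329 CPM of Col4a1 together with 3464 CPM of epithelial and 7734 CPM of smooth muscle markers, from 25 cells only. Members whose interval lay above leukocyte-like cells numbered 10, 6 and 10 of 10 in fibroblast-like cells in sets 1, 2 and 3, 6, 4 and 8 of 10 in smooth muscle-like cells, 5, 1 and 3 of 10 in epithelium-like cells, and 7 of 7, 7 of 9 and 7 of 10 members with a ratio in endothelium-like cells. Over all rows with a ratio the shares above leukocyte-like cells were 20.3%, 3.9% and 14.8% in fibroblast-like, 21.3%, 3.17% and 14.3% in smooth muscle-like, 16.6%, 1.61% and 12.6% in epithelium-like and 18.6%, 4.13% and 18.4% in endothelium-like cells. All intervals given are 95% intervals and cover counting error only, since there are no replicates. A level is called not above leukocyte-like cells where the interval of its log2 ratio to theirs holds 0 or lies below 0. Such a level was not told apart from background. Where leukocyte-like cells had few UMIs, raised to 3 if fewer, this can be want of counts.

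Col4a1 codes for the alpha 1 chain of the common type IV collagen trimer, and endothelium-like cells had its highest level among the 4 classes in every set. There it stood at 1322 (1253 to 1393), 2476 (2329 to 2629.5) and 1253 (1179 to 1331) CPM in sets 1, 2 and 3. Fibroblast-like cells had 354 (341 to 368), 803 (771 to 837) and 446 (426 to 468) CPM and smooth muscle-like cells 413 (383 to 444), 780.0 (749 to 811) and 257 (241 to 274) CPM. In epithelium-like cells it stood at 24.8 (21.4 to 28.8), 287 (276 to 299) and 117 (112 to 122) CPM. Epithelium was thus the lowest of the 4 classes throughout, while the intervals of fibroblast-like and smooth muscle-like cells overlapped in set 2. The ratios of endothelium-like over epithelium-like cells were 53.2, 8.63 and 10.7. On the log2 scale they were 5.73 (5.51 to 5.97), 3.11 (3.0 to 3.21) and 3.42 (3.31 to 3.53). Among endothelium-like cells 81.1, 96.9 and 80.9% had a Col4a1 UMI, against 0, 40 and 8.99% of leukocyte-like cells, at median depths of 20753, 3261.5 and 3142 UMIs against 10313, 2027 and 2003. With every cell thinned to 900 UMIs the shares were 52.8, 84.3 and 55.8% against 0, 17.4 and 3.55%.

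Col4a2, the alpha 2 chain of the same trimer, was also highest in endothelium-like and lowest in epithelium-like cells in each set. Its levels were 573 (528 to 621), 1287 (1182 to 1399) and 476 (431 to 525) CPM in endothelium-like cells. Fibroblast-like cells had 137, 347 and 190.4 CPM of it. In smooth muscle-like cells they were 122, 273 and 80.8 CPM, and in epithelium-like cells 8.01 (6.08 to 10.4), 137 (129 to 145) and 42.7 (39.7 to 45.9) CPM. Over 14 points, each a class in a set with at least 50 cells, Col4a2 was the gene most like Col4a1 among 7175 rows ranked (Pearson's r of log2(CPM + 5) = 0.99), followed by Ehd2 and Cdc42bpa. These points share 3 libraries and the epithelial, stromal and other classes in them, so r is a description. In no set was the epithelium-like level of Col4a2 above leukocyte-like cells beyond counting error. In set 1 the leukocyte-like cells had 0 UMIs of it, raised to the floor of 3 for this comparison. The UMIs of Col4a1 per UMI of Col4a2 were 3.1 (2.30 to 4.25), 2.10 (1.95 to 2.25) and 2.74 (2.52 to 2.99) in epithelium-like and 2.60, 2.32 and 2.34 in fibroblast-like cells. They were 3.38 (2.89 to 3.96), 2.85 (2.64 to 3.09) and 3.18 (2.79 to 3.64) in smooth muscle-like and 2.31 (2.09 to 2.54), 1.92 (1.73 to 2.14) and 2.63 (2.34 to 2.96) in endothelium-like cells. The smooth muscle-like ratio was above the endothelium-like one in each set, with overlapping intervals in set 3, and in set 1 it lay within the wide epithelium-like interval. Of the cells with a Col4a2 UMI, 100%, 97.6% and 94.1% also had one of Col4a1 among endothelium-like cells, and 93.1%, 72.5% and 54.8% among the shallower fibroblast-like cells.

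**Figure D1:**
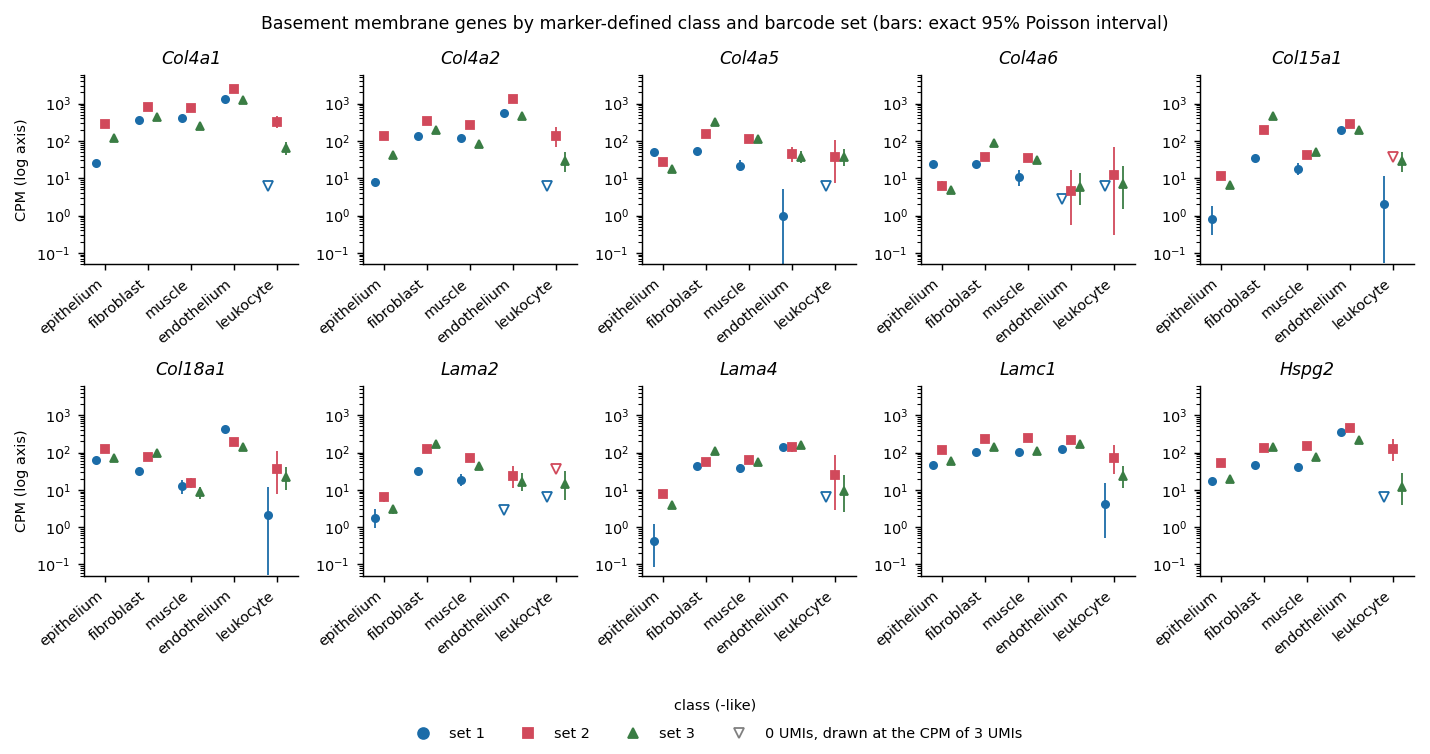
Levels of the 10 genes in CPM (log axis) in 5 marker-defined classes, with 1 point per barcode set and exact 95% Poisson intervals for counting error. Endothelium-like cells hold the highest points of Col4a1, Col4a2 and Hspg2, while Col4a5 and Col4a6 lie highest in fibroblast-like cells in sets 2 and 3, and open triangles mark 0 UMIs.

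Col4a5, the alpha 5 chain, was highest in fibroblast-like cells in sets 2 and 3 and in no set in endothelium-like cells. Endothelium-like cells had only 0.951 (0.0241 to 5.30), 44.4 (26.7 to 69.3) and 38.1 (26.1 to 53.8) CPM, against 53.2 (48.1 to 58.8), 157 (143 to 172) and 321 (303 to 339) CPM in fibroblast-like cells. In smooth muscle-like cells it stood at 21.8 (15.3 to 30), 115 (103 to 127) and 113 (102 to 124) CPM and in epithelium-like cells at 49.7 (44.7 to 55.1), 27.5 (24 to 31.3) and 18.1 (16.1 to 20.2) CPM. Set 1 differed from the others in the place of epithelium, which equalled fibroblast-like cells there within counting error and stood below them in sets 2 and 3, the log2 ratio of fibroblast-like over epithelium-like cells being 0.10 (-0.11 to 0.31), 2.51 (2.28 to 2.75) and 4.15 (3.97 to 4.33). Leukocyte-like cells had 0, 36.6 and 38.2 CPM, so in sets 2 and 3 neither the epithelium-like nor the endothelium-like level was above that background. In set 1, where the leukocyte-like cells had 0 UMIs, 74.7% of epithelium-like cells had a UMI at a median depth of 41372.

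Col4a6, the alpha 6 chain and partner of Col4a5, had 23.4 (20 to 27.1), 38 (31.2 to 45.8) and 85.7 (76.8 to 95.3) CPM in fibroblast-like and 10.6 (6.27 to 16.7), 35.6 (29.3 to 42.8) and 30.8 (25.4 to 37.1) CPM in smooth muscle-like cells. Its epithelium-like level was 24.4 (21 to 28.3), 6.36 (4.77 to 8.32) and 4.80 (3.82 to 5.95) CPM, highest in set 1. That level was below leukocyte-like cells in set 2 and not above them in set 3. Fibroblast-like cells of set 2 and smooth muscle-like cells of sets 1 and 2 were not above leukocyte-like cells for this gene. Endothelium-like cells had 0, 2 and 5 UMIs of it. With the 0 of set 1 raised to the floor of 3 UMIs, their level was 8.57-fold below epithelium-like cells, which is no lower bound. The chain varied with Col4a5, r being 0.86 over the same 14 points, whereas r of Col4a6 with Col4a1 was -0.12. UMIs of Col4a5 per UMI of Col4a6 were 2.03 (1.69 to 2.45), 4.32 (3.19 to 5.94) and 3.77 (2.95 to 4.87) in epithelium-like and 2.28 (1.90 to 2.74), 4.14 (3.35 to 5.14) and 3.75 (3.32 to 4.24) in fibroblast-like cells. Smooth muscle-like cells had 2.06 (1.14 to 3.84), 3.23 (2.61 to 4.03) and 3.66 (2.96 to 4.55). Within a set the 3 classes had overlapping intervals for this ratio.

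As a share of the 6 type IV collagen chains, Col4a5 and Col4a6 had the highest share of the 4 classes in epithelium-like cells of set 1. Together they made up 68.7% (65.3 to 71.9), 7.13% (6.35 to 7.98) and 12.1% (11 to 13.2) of the UMIs of all 6 chains in epithelium-like cells in sets 1, 2 and 3. In endothelium-like cells the share was 0.0502% (0.00127 to 0.279), 1.28% (0.791 to 1.94) and 2.47% (1.74 to 3.39). Fibroblast-like cells had 13.4% (12.4 to 14.4), 12.1% (11.1 to 13) and 33.8% (32.4 to 35.1). Smooth muscle-like cells had 5.63% (4.27 to 7.26), 11.5% (10.5 to 12.5) and 27.6% (25.6 to 29.7), so both stromal classes were highest in set 3. The low share of epithelium-like cells in set 2 stands beside a Col4a1 level there that was not above that of leukocyte-like cells (log2 ratio -0.20, interval -0.74 to 0.41), whose part was not tested. The remaining chains Col4a3 and Col4a4, which form a trimer with alpha 5 in kidney and other sites, were also compared between both classes. Col4a3 had 1.49, 50.4 and 46.4 CPM in fibroblast-like and 0.138, 3.84 and 2.75 CPM in epithelium-like cells, and Col4a4 had 4.35, 221 and 114 against 0.828, 13.2 and 4.15 CPM.

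**Figure D2:**
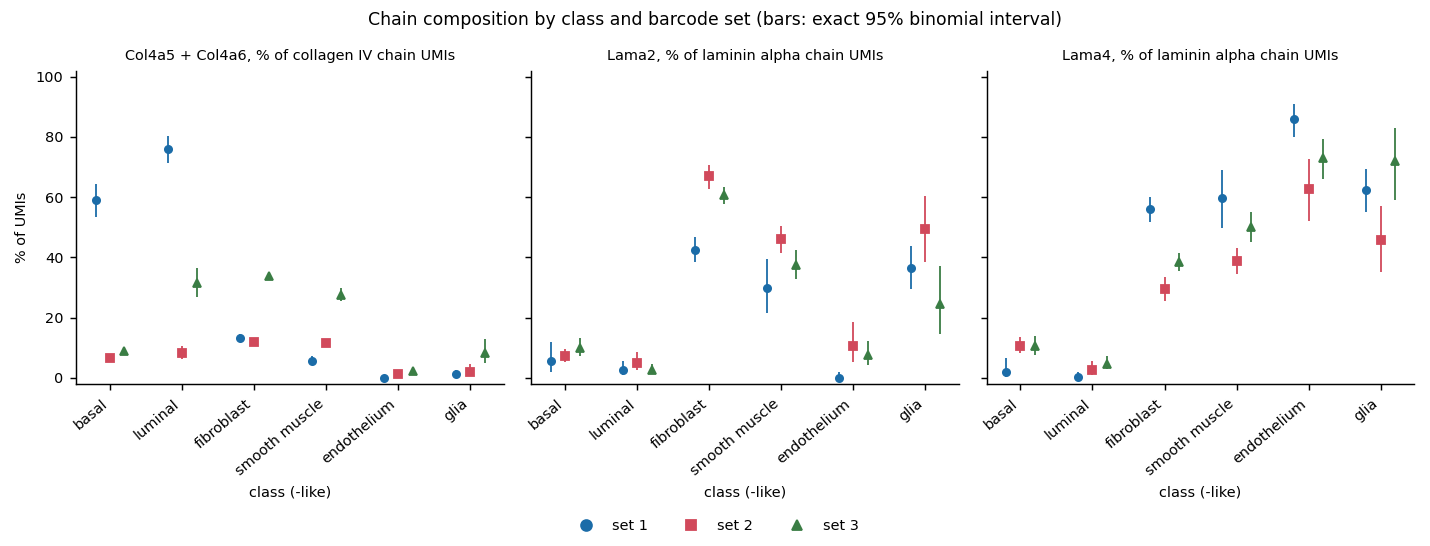
Shares of UMIs in percent, with exact 95% binomial intervals, for Col4a5 plus Col4a6 among the 6 type IV collagen chains and for Lama2 and Lama4 among the laminin alpha chains with a row (Lama2, Lama4 and Lama5), by class and barcode set. The alpha 5 and alpha 6 chains reach 76.1% in luminal-like cells of set 1, and Lama4 has its highest share in endothelium-like cells in each set.

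Col15a1 codes for the core of collagen XV, a chondroitin sulfate bearing collagen at the outer face of basement membranes in vessels and muscle. It was high in endothelium-like cells, with 199.7 (174 to 229), 283 (235 to 338) and 198 (169 to 230.0) CPM. It was also high in fibroblast-like cells, with 35.3 (31.2 to 39.9), 193 (177 to 209.7) and 453 (432 to 474) CPM. Which of the 2 classes was higher differed between sets, since the log2 ratio of endothelium-like over fibroblast-like cells was 2.50 (2.23 to 2.77), 0.55 (0.25 to 0.84) and -1.20 (-1.44 to -0.97). Smooth muscle-like cells had 17.6, 41.6 and 49.2 CPM, in no set above leukocyte-like cells, and epithelium-like cells 0.828 (0.304 to 1.80), 11.5 (9.34 to 14.1) and 6.55 (5.39 to 7.88) CPM, the latter below the leukocyte-like level in set 3 (28.6 CPM). Fibroblast-like cells of set 3 held 75.1% of all Col15a1 UMIs of that set, and 3945238 of its 27444044 UMIs of all genes.

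Col18a1 codes for collagen XVIII, a heparan sulfate bearing collagen whose end fragment is endostatin, and it was the only member above leukocyte-like cells in the epithelium-like class of set 2. Epithelium-like cells had 63.9 (58.2 to 70), 121 (113 to 128) and 72.3 (68.3 to 76.4) CPM, and in each set this was above leukocyte-like cells, the log2 ratios being 3.35 (1.80 to 5.64), 1.72 (0.17 to 4.0) and 1.75 (0.82 to 2.88). Endothelium-like cells had 416 (377 to 456), 196 (156 to 243) and 142 (117 to 169.5) CPM and fibroblast-like cells 32.5 (28.5 to 36.9), 75.9 (66.2 to 86.7) and 96.3 (86.9 to 107) CPM. In smooth muscle-like cells it was the lowest of the 4 classes at 12.3 (7.64 to 18.9), 15.6 (11.5 to 20.6) and 8.61 (5.85 to 12.2) CPM, 5.18, 7.76 and 8.40-fold below epithelium, and in no set was it above leukocyte-like cells. Nor was the fibroblast-like level of set 2. The log2 ratio of fibroblast-like over epithelium-like cells was -0.98 (-1.21 to -0.75), -0.67 (-0.89 to -0.46) and 0.41 (0.24 to 0.58), and 1 small cluster carried the set 1 value. Of the 463 epithelium-like Col18a1 UMIs of set 1, 312 came from 25 cells of a cluster with Upk1a, a urothelial gene, among its leading genes. Without that cluster (chosen after seeing the data) the epithelium-like level of set 1 was 26 (22 to 30.4) CPM and the ratios became 0.32 (0.02 to 0.63), -0.66 (-0.88 to -0.45) and 0.37 (0.20 to 0.54), so the direction in set 1 turned. The set 1 log2 ratios of smooth muscle-like and endothelium-like over epithelium-like cells then went from -2.37 to -1.07 and from 2.70 to 4.0. The ratio in set 3 became -0.14 with cells thinned to 900 UMIs and -0.10 with each cell weighted equally. Epithelium-like cells held 33.3, 69.2 and 63.8% of the Col18a1 UMIs of each set, against 0.910, 9.75 and 4.71% of those of Col15a1. Of the UMIs of all genes they held 7243538 of 20511786, 8329258 of 15929745 and 17094558 of 27444044 (the last total over all 8457 cells). Their Col18a1 shares in sets 1 and 3 were thus near their share of all UMIs.

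Lama2, the alpha 2 chain of the laminins of muscle and nerve sheaths, was a stromal gene in these cells. It stood at 32.1 (28.1 to 36.4), 126 (114 to 140.0) and 173 (160.4 to 187) CPM in fibroblast-like and 18.8 (12.9 to 26.6), 72.7 (63.6 to 82.8) and 42.2 (35.8 to 49.5) CPM in smooth muscle-like cells. Epithelium-like cells had 1.79 (0.956 to 3.07), 6.36 (4.77 to 8.32) and 2.98 (2.22 to 3.92) CPM, and the fibroblast-like levels were 17.9, 19.9 and 58 times higher. In endothelium-like cells of set 1 it had 0 UMIs, taken as 2.85 CPM by the same floor. In sets 2 and 3 it had 23.4 and 16.7 CPM there, neither above leukocyte-like cells. Neither the epithelium-like level of any set nor the smooth muscle-like level of sets 1 and 2 was above leukocyte-like cells. Glia-like cells (21, 179 and 232 cells, with Fabp7 and Foxd3 among their leading genes) had 116 (90 to 148), 181 (130.5 to 245) and 55.2 (30.9 to 91.1) CPM, above fibroblast-like cells in set 1 and below them in set 3.

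Lama4, the alpha 4 chain found in vessel walls, was higher in endothelium-like than in fibroblast-like or smooth muscle-like cells in each set. Endothelium-like cells had 139.8 (118 to 164), 138 (105 to 178) and 162 (136 to 191) CPM. Fibroblast-like cells had 42.2 (37.7 to 47.2), 55.6 (47.3 to 64.9) and 110.0 (99.9 to 121) CPM and smooth muscle-like cells 37.6, 61.3 and 56.1 CPM. In glia-like cells, where the levels overlapped the endothelium-like intervals in sets 2 and 3, it stood at 199 (165 to 239), 168 (119.5 to 229.8) and 162 (118 to 218) CPM. Epithelium-like cells had 0.414 (0.0854 to 1.21), 7.68 (5.92 to 9.81) and 3.86 (2.99 to 4.91) CPM, from 3, 64 and 66 UMIs, in no set above leukocyte-like cells, and in set 2 the fibroblast-like and smooth muscle-like levels were not above them either. Among the laminin alpha chains with a row, Lama4 took 86% (79.8 to 90.8), 62.8% (52.2 to 72.5) and 73.1% (66.1 to 79.3) of UMIs in endothelium-like cells. Lama2 took 42.5% (38.4 to 46.8), 66.9% (62.8 to 70.8) and 60.6% (57.7 to 63.5) in fibroblast-like cells. Lama5, the third of these chains and no member, took 96.3% (94 to 97.9), 85.8% (83.2 to 88.1) and 86.4% (83.9 to 88.6) in epithelium-like cells. Epithelium-like and endothelium-like cells thus each had 1 leading alpha chain in all sets. In fibroblast-like cells Lama2 led in sets 2 and 3, while in set 1 Lama4 led with 56.0% of 555 UMIs.

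Lamc1 codes for the gamma 1 chain, which most laminin trimers contain, and it had the smallest ratio of highest to lowest class among the members in each set. Its levels were 45 (40.3 to 50.2), 120.3 (113 to 128) and 60.4 (56.8 to 64.2) CPM in epithelium-like and 105 (97.6 to 113), 223 (206 to 241) and 142 (131 to 154) CPM in fibroblast-like cells. They were 103 (88.8 to 119.9), 252 (235 to 270.3) and 113 (102 to 124) CPM in smooth muscle-like and 122 (102 to 145), 219.6 (177 to 269) and 165 (139 to 195) CPM in endothelium-like cells. Fibroblast-like and endothelium-like cells had overlapping intervals in each set, with log2 ratios of endothelium-like over fibroblast-like cells of 0.21 (-0.07 to 0.49), -0.02 (-0.35 to 0.29) and 0.22 (-0.06 to 0.49). Epithelium was lower than each of the 3, by at most 2.74-fold, but with cells thinned to 900 UMIs the log2 ratio of endothelium-like over epithelium-like cells in set 2 turned from 0.87 to -0.57 (-1.91 to 0.50).

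Hspg2 codes for perlecan, the heparan sulfate proteoglycan that binds growth factors and links the 2 networks. Its levels were 355 (319.6 to 393), 462 (400.3 to 532) and 220.2 (189.6 to 254) CPM in endothelium-like cells, highest of the 4 classes in each set. Fibroblast-like cells had 47.3 (42.4 to 52.5), 132 (119 to 145) and 144 (132 to 156) CPM. Smooth muscle-like cells had 41.7 (32.6 to 52.7), 149.6 (136 to 164) and 78.1 (69.2 to 87.7) CPM, with overlapping intervals in sets 1 and 2. Epithelium-like cells had 17.3 (14.4 to 20.6), 52.7 (47.9 to 57.9) and 19.5 (17.4 to 21.7) CPM, which in set 2 was below leukocyte-like cells at 122 CPM. The fibroblast-like and smooth muscle-like levels of set 2 were not above leukocyte-like cells either. Glia-like cells had 212, 461 and 295 CPM, a level within the endothelium-like interval in set 2 and above it in set 3.

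Counted together, 7, 8 and 9 of the 10 members were at least 2-fold higher in fibroblast-like than in epithelium-like cells in sets 1, 2 and 3, where 23.7%, 18.8% and 20.4% of all rows with at least 30 UMIs were. None was at least 2-fold lower, as 16%, 15.5% and 22.5% of all rows were, and Col18a1 was the only member called in none of the sets. The median log2 ratio of the members was 2.64, 2.0 and 3.52, against 0.15, 0.06 and -0.17 over all rows. In smooth muscle-like cells 7, 8 and 7 members were higher (background 17.4%, 17.8% and 18.1%) and 3, 1 and 1 lower (background 19%, 17.1% and 24.1%), with medians of 2.33, 1.68 and 2.32 against 0.05, -0.03 and -0.20. Col18a1 was the lower member in each set, joined in set 1 by Col4a5 and Col4a6, and Col4a2 in set 2 lay at the 2-fold line without passing it (log2 ratio 1.0 after rounding).

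Some of these calls concern levels that were not above leukocyte-like cells. In set 2 they are Col4a6, Lama4 and Hspg2 of the fibroblast-like calls and Col4a6, Col15a1, Lama2, Lama4 and Hspg2 of the smooth muscle-like calls, which leaves Col4a1, Col4a5 and Lamc1 of the latter. In smooth muscle-like cells they are also Col15a1 and Lama2 in set 1 and Col15a1 in set 3.

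In endothelium-like cells 7 of 9, 6 of 10 and 8 of 10 members tested were at least 2-fold higher (background 15.1%, 17.3% and 19.3%). Col4a5 and Col4a6 were at least 2-fold lower in set 1 and no member was in sets 2 and 3 (background 21.9%, 9.02% and 10.3%). Lama2 was not tested in set 1 for want of UMIs, and of the calls Lama2 in sets 2 and 3 and Col4a5 in set 3 were not above leukocyte-like cells. Member medians were 4.36, 2.49 and 2.95 against -0.14, 0.20 and 0.16 over all rows. Since classes of a set share 1 library and epithelium-like cells are the common comparator, the 3 comparisons are not independent, and the members were not tested as a group. With every cell thinned to 900 UMIs the members called higher in set 1 fell from 7 to 2 in fibroblast-like, 0 in smooth muscle-like and 1 in endothelium-like cells, as few UMIs remained there. With clusters at resolution 1.0 in place of 0.5, the smooth muscle-like class of set 1 fell from 74 to 28 cells, and the epithelium-like levels of set 1 became 4.79 CPM for Col15a1, 2.27 CPM for Lama4 and 4.16 CPM for Lama2.

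**Figure D3:**
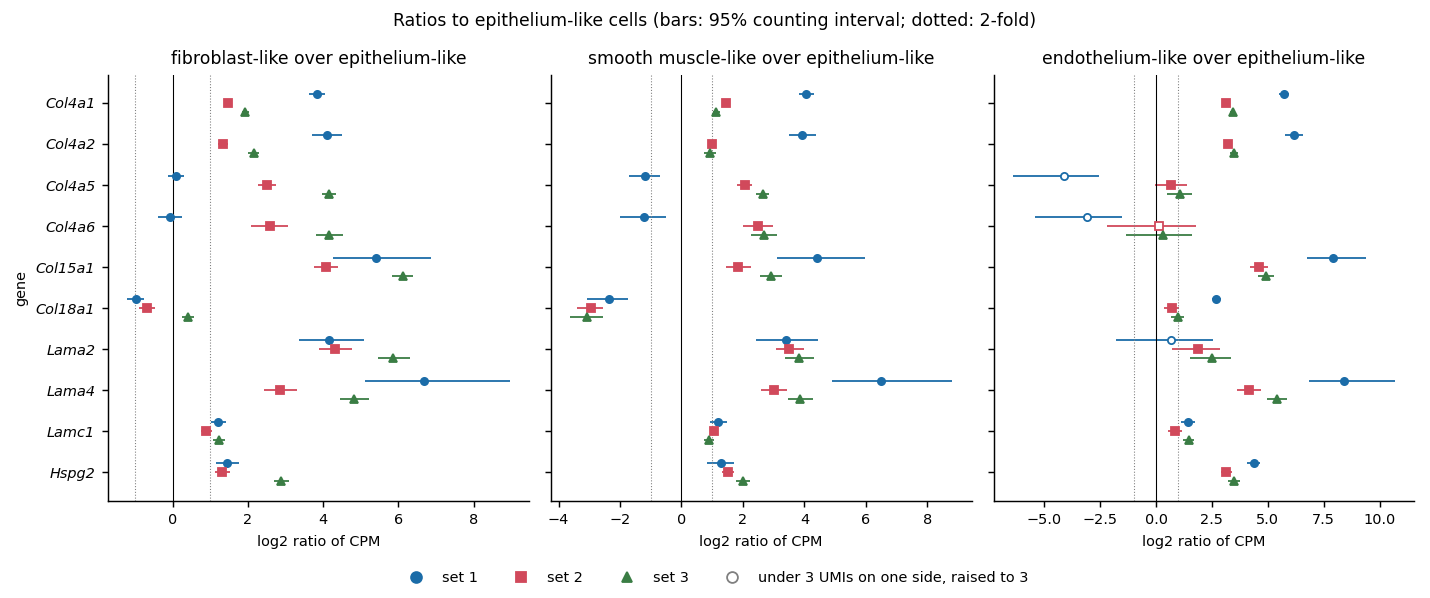
Log2 ratios of CPM for fibroblast-like, smooth muscle-like and endothelium-like over epithelium-like cells, by gene and barcode set, with 95% counting intervals and dotted lines at 2-fold. Most members lie right of 0 in all 3 panels, Col18a1 lies left of 0 in smooth muscle-like cells, and Col4a5 and Col4a6 of set 1 lie apart from those of sets 2 and 3.

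Within the epithelium, basal-like cells (47, 996 and 1744) and luminal-like cells (78, 410 and 948) differed for most members. Basal cells sit directly on the basement membrane, and the clusters were told apart by markers such as Itga6, Dst and Lgals7 against Prom1, Pigr and Tspan1, with no member among the genes clustered on. Col4a1 was 52.6 (42.5 to 64.4), 419.6 (401 to 439) and 256 (244 to 268) CPM in basal-like and 16.9 (13.1 to 21.4), 125 (114 to 138) and 20.4 (17.5 to 23.5) CPM in luminal-like cells. This gave log2 ratios of 1.64 (1.18 to 2.11), 1.74 (1.59 to 1.90) and 3.65 (3.43 to 3.88). Col4a2 was 19, 203 and 98.2 against 4.22, 53.2 and 5.51 CPM, the log2 ratios being 2.17 (1.29 to 3.11), 1.93 (1.70 to 2.17) and 4.16 (3.74 to 4.6). Both chains were therefore higher in basal-like cells in every set, and by most in set 3.

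Col18a1 was 54.3 (44 to 66.3), 181 (168 to 193) and 161 (152 to 171) CPM in basal-like and 13.4 (10.1 to 17.5), 39.6 (33.2 to 46.8) and 9.91 (7.97 to 12.2) CPM in luminal-like cells. On the log2 scale the ratios came to 2.02 (1.52 to 2.53), 2.19 (1.93 to 2.46) and 4.02 (3.71 to 4.35). Basal-like cells thereby stood above fibroblast-like cells for this gene in each set, by 0.74, 1.25 and 0.74 on the log2 scale. Hspg2 was 39.2, 72.4 and 40.1 against 10.7, 27.1 and 5.18 CPM, the log2 ratios being 1.88 (1.31 to 2.46), 1.42 (1.08 to 1.77) and 2.96 (2.50 to 3.43). The laminin gamma 1 chain Lamc1 differed less, at 67.2, 144 and 84.6 against 40.9, 89 and 44.4 CPM and log2 ratios of 0.71, 0.70 and 0.93. The log2 ratios of Col4a5 were 0.41 (0.07 to 0.76), 1.33 (0.86 to 1.81) and 1.55 (1.18 to 1.92) and those of Col4a6 0.94 (0.47 to 1.40), 1.73 (0.66 to 2.96) and 1.34 (0.63 to 2.09). In set 1 Col4a5 stood at 63.8 CPM in basal-like and 47.9 CPM in luminal-like cells, its smallest difference of the 3 sets.

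Against leukocyte-like cells, basal-like cells were higher beyond counting error for 6 of 8, 1 of 10 and 5 of 10 members with a ratio, and luminal-like cells for 3 of 8, 0 of 10 and 1 of 10. The shares of all rows with a ratio were 20%, 1.96% and 13.2% in basal-like and 16.7%, 1.95% and 13.9% in luminal-like cells. The single basal-like call of set 2 was Col18a1, and those of set 3 were Col4a1, Col4a2, Col18a1, Lamc1 and Hspg2. Luminal-like cells lay below leukocyte-like cells for 7 members in set 2 and for 6 in set 3, Col4a1 and Col4a2 among them, against 39.9% and 27.7% of all rows. Another epithelial cluster (25, 41 and 101 cells) with the urothelial gene Upk1a among its leading genes had 219 (195 to 244), 134 (95.6 to 184) and 46.8 (35.6 to 60.3) CPM of Col18a1 and 12.6, 96.5 and 69.8 CPM of Col4a1.

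**Figure D4:**
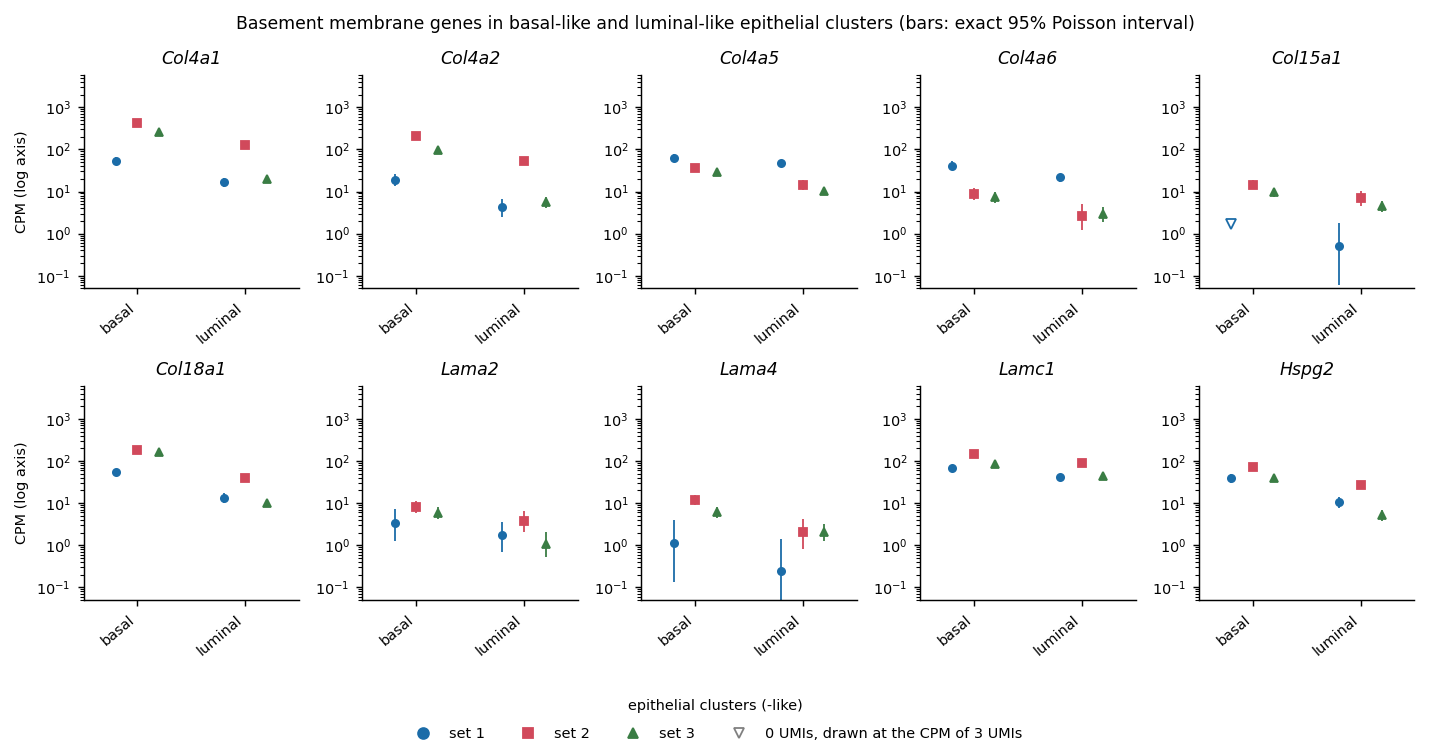
Levels of the 10 genes in CPM (log axis) in basal-like and luminal-like epithelial cells, with 1 point per barcode set and exact 95% Poisson intervals. Col4a1, Col4a2, Col18a1 and Hspg2 lie higher in basal-like cells in all 3 sets, and open triangles mark 0 UMIs.

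The fibroblast-like class held a cluster led by Fgf21, Lamc3 and Mmp2 (212, 810 and 1518 cells) and one led by Dpt, Ptx3 and Lum (145, 865 and 1117 cells), and several members differed between them. It also held a mitotic cluster of 25, 115 and 50 cells, led by Cenpf and Myod1, which carried 11 fibroblast and 7 smooth muscle markers. Without that cluster all 90 ratios over epithelium-like cells stayed within their interval. Col15a1 is itself among the 10 leading genes of the first, so its difference is a description of that cluster. It had 40.6, 366 and 594 CPM in the Fgf21 cluster and 24.2, 64.8 and 302 CPM in the Dpt cluster. Col4a5 had 85.4 (75.7 to 96), 267 (238 to 298) and 368 (342 to 395) against 23 (18.2 to 28.7), 80.9 (66.8 to 97.2) and 279 (255 to 305) CPM. Col4a6 had 38.4, 60 and 106 against 8.56, 19.7 and 64.4 CPM, so both chains were higher in the Fgf21 cluster in each set. Lama4 was lower there in each set, at 35.1, 35.5 and 85.5 against 46.9, 71.1 and 139 CPM, the log2 ratios being -0.42 (-0.78 to -0.07), -1.0 (-1.56 to -0.47) and -0.70 (-0.99 to -0.42). Col4a1 was lower in it in set 1 and higher in sets 2 and 3, the log2 ratios being -0.66 (-0.79 to -0.54), 0.30 (0.17 to 0.42) and 0.22 (0.08 to 0.36).

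An unnamed cluster of 14, 29 and 127 cells was led by Rgs5 and carried all 7 pericyte markers with a row, 7 of 14 fibroblast and 7 of 11 smooth muscle markers. Its Col4a1 level was 1681 (1549 to 1820.4), 2485 (2050.1 to 2986) and 1277 (1125 to 1445) CPM, and against endothelium-like cells the log2 ratio was 0.35 (0.21 to 0.49), 0.01 (-0.29 to 0.29) and 0.03 (-0.18 to 0.23), a higher level in set 1 and intervals that hold 0 in sets 2 and 3. Lama2 stood at 25.1 (11.5 to 47.7), 109 (35.4 to 254) and 60.8 (31.4 to 106) CPM, from 9, 5 and 12 UMIs. Endothelium-like cells had 0 Lama2 UMIs in set 1. With these raised to the floor of 3 UMIs the cluster was 8.81-fold higher there, which is no lower bound. The log2 ratios in sets 2 and 3 were 2.22 (0.32 to 3.91) and 1.87 (0.63 to 3.09). In set 2 it was not above leukocyte-like cells. Hspg2 was lower in it than in endothelium-like cells in each set, the log2 ratios being -1.43 (-1.90 to -0.99), -1.41 (-2.64 to -0.40) and -1.12 (-1.86 to -0.45). Col18a1 in this cluster was 39.1 (21.4 to 65.6), 109 (35.4 to 254) and 243 (179 to 323) CPM, with set 3 highest.

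**Figure D5:**
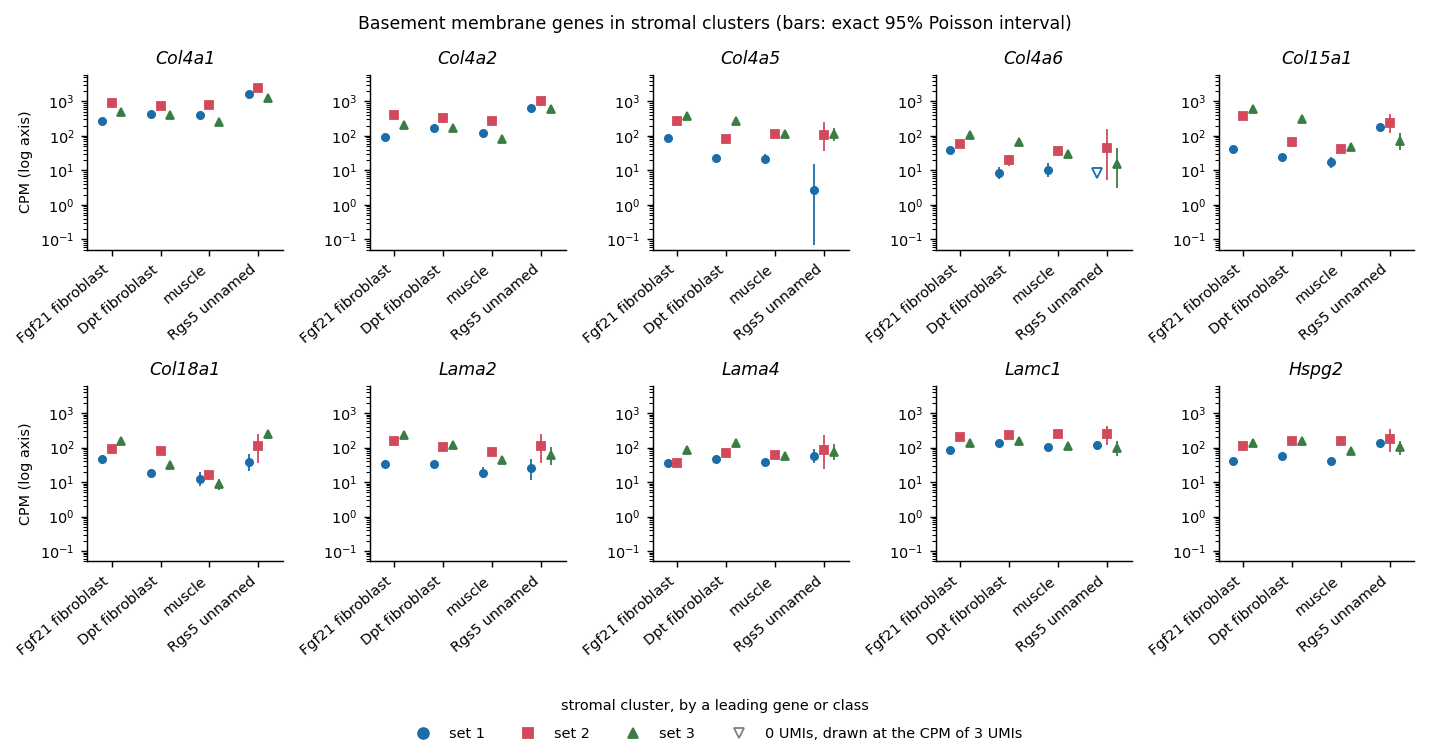
Levels of the 10 genes in CPM (log axis) in both large fibroblast-like clusters, the smooth muscle-like cluster and the unnamed Rgs5 cluster, with 1 point per barcode set and exact 95% Poisson intervals. The Rgs5 cluster lies highest for Col4a1 and Col4a2, and the Fgf21 cluster lies highest for Col4a6 in sets 1, 2 and 3.

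The other basement membrane genes were read from lists of further components, receptors and assembly genes, of which 18 of 31, 5 of 13 and 8 of 12 had a row. Of the other components 7, 7 and 7 were at least 2-fold higher and 6, 5 and 5 lower in fibroblast-like than in epithelium-like cells, of 15, 14 and 15 tested (backgrounds 23.7%, 18.8% and 20.4% higher and 16%, 15.5% and 22.5% lower). The lower ones included in each set laminin chains known from epithelia, with Lama5 at 1.09, 6.90 and 2.53 against 57.2, 84.6 and 43.5 CPM. The same held for Lamb3 at 0.951, 1.04 and 0.507 against 24.6, 62.8 and 27.1 CPM. Hmcn1 (hemicentin) and Vwa1, which binds perlecan, were higher in fibroblast-like cells in each set. Lamb3 and Itga6 are also among the basal markers by which clusters were named, though not among the genes clustered on.

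Of the assembly genes 6, 5 and 5 of 7 tested were higher in fibroblast-like cells and 0 lower, against the same backgrounds. Serpinh1, the chaperone of collagen folding, had 1966, 852 and 892 CPM in fibroblast-like and 982, 653 and 408 CPM in smooth muscle-like cells. It had 1160.0, 418 and 362 CPM in endothelium-like and 135, 94.7 and 42.2 CPM in epithelium-like cells. Plod1, which hydroxylates collagen lysines, had 57.6, 55.9 and 88.7 CPM in fibroblast-like and 108, 70.1 and 101 CPM in endothelium-like cells against 2.76, 5.04 and 3.69 CPM in epithelium-like cells. Of the receptors, the laminin receptors Itga6 and Bcam were lower in fibroblast-like cells in each set and the collagen receptor Ddr2 was higher, at 51.5, 148 and 124 against 1.10, 8.40 and 3.22 CPM. Against epithelium-like cells, smooth muscle-like cells had 4, 7 and 8 other components higher and 5, 5 and 5 lower of 11, 14 and 15 tested, and 5, 5 and 4 of 7 assembly genes higher and 0 lower. The backgrounds there were 17.4%, 17.8% and 18.1% higher and 19%, 17.1% and 24.1% lower. Endothelium-like cells had 5, 2 and 4 other components higher and 5, 2 and 1 lower of 11, 12 and 11 tested, and 6, 4 and 5 of 7 assembly genes higher with 1 lower, Mia3 in set 2. Their backgrounds were 15.1%, 17.3% and 19.3% higher and 21.9%, 9.02% and 10.3% lower, so the 2 of 12 other components higher in set 2 and the 1 of 11 lower in set 3 were near the background.

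Among 7175 rows ranked over the 14 points, the genes most like each remaining member were taken by the same measure. They were Ifitm1 (0.91) for Col4a5, Syt13 (0.90) for Col4a6, Esyt1 (0.93) for Col15a1 and Emp1 (0.90) for Col18a1, with r in parentheses. For the laminins and perlecan they were Fgf2 (0.94) for Lama2, Ski (0.97) for Lama4, Mapre1 (0.95) for Lamc1 and BC030336 (0.95) for Hspg2. Between members, r was 0.91 for Lama4 with Hspg2, 0.89 for Lamc1 with Hspg2, 0.89 for Col15a1 with Lama4 and 0.89 for Col4a1 with Lamc1, while Col18a1 reached at most 0.48 with any other member.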

How the data were processed

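Single cell 3' libraries were made on the 10x Chromium system (v2 kit per the methods, v3 per the labels) from 3 groups with 1 library each. The authors aligned reads to mm10 and counted UMIs with Cell Ranger 3.1.0. They deposited natural log values, ln(1 + 10000 x UMIs / UMIs of the cell). From these, whole UMIs were recovered for all 11120281 values above 0 (largest distance from a whole number 9.40e-07, tolerance 0.05). The table had 9784 gene rows. Of these, 1 with 7208 empty cells and 2 of shared name were left out, and 9781 were used. They held 52.7%, 50.4% and 49.4% of the UMIs of sets 1, 2 and 3, and other genes were not analysed here. RefSeq symbols matched 94.8% of rows.

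Cells with at least 200 genes (14476 of 14573) were integrated and clustered in Seurat 5.3.0 (R 4.3.3) after the study's settings: 20 dimensions, cell cycle scores regressed out, 30 principal components and resolution 0.5. Members, the other basement membrane genes and EGFP were kept out of the clustering features. The 14 clusters were named by marker lists, and 2 stayed unnamed. A carried marker had a UMI in at least 10% of a cluster's cells and at least 2 times the rate of the median cluster. Class names were rebuilt here and may differ from the study's. Scrublet (scanpy 1.11.5) put 3, 0 and 0 cells over its threshold, too few for the caller to have worked, so no cell was removed.

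UMIs were summed by class and set and given as CPM with exact 95% Poisson intervals (scipy 1.17.1). The interval of a ratio comes from an exact binomial split of its pair of sums, and sums of 0 to 2 UMIs were raised to the floor of 3. A member was called past 2-fold among rows with at least 30 UMIs over both classes. With 1 library per group there was no test and no p-value. The genes named are the 10 members, the other basement membrane lists, class markers and the 3 genes most like each member. Leading genes of clusters are also named, to tell clusters apart, and were chosen after their values were seen. Members and lists were chosen with earlier results of these data known. The steps were tested on simulated data, and 9 alternatives were run.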

Additional observations from a re-analysis of the deposited data

Results flagged for a closer look

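For 3 genes the direction of a ratio to epithelium-like cells was not the same in the 3 barcode sets and at least 1 interval lay on each side of 0. These differences between sets were not tested, since each set is 1 library and no label says which age it holds. The log2 ratio of smooth muscle-like over epithelium-like cells for Col4a5 was -1.19 in set 1, 2.06 in set 2 and 2.64 in set 3. For Col4a6 it was -1.21, 2.48 and 2.68. The smooth muscle-like class of set 1 held 5496 CPM of smooth muscle, 5580.3 CPM of fibroblast and 5405 CPM of erythroid markers, against 28707 and 28478 CPM of smooth muscle markers in sets 2 and 3, and their part in these ratios was not tested. The ratio of endothelium-like over epithelium-like cells for Col4a5 was -4.12, 0.69 and 1.08, of which the first rests on 1 UMI raised to the floor of 3 and the interval of the second (-0.07 to 1.37) holds 0. In sets 2 and 3 the epithelium-like and endothelium-like levels of Col4a5 and the epithelium-like level of Col4a6 were not above those of leukocyte-like cells. For Col18a1 the ratio of fibroblast-like over epithelium-like cells was -0.98, -0.67 and 0.41. Without the 25 epithelium-like cells of the Upk1a cluster the Col18a1 ratio of set 1 was 0.32. The classes that set these ratios differ in depth, set 1 having the deepest cells, and the part of depth in them was not tested beyond the thinned values given next.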

How the results depend on the processing

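No paired analysis was possible because there was 1 library for each group. Of 1961 values recomputed under 9 alternatives, 1537 stayed within their counting interval (counts, within 1.5 times), 414 moved further and 10 changed sign. With each cell thinned to 900 UMIs, which leaves few UMIs in set 1 by construction, log2 ratios over epithelium-like cells in set 1 became 0.61 for Col4a5 and 0.029 for Col4a6 in smooth muscle-like cells, 1.63 and 1.05 in endothelium-like cells, and -0.61 for Col15a1 in fibroblast-like cells. All 5 of these intervals hold 0. Thinning also gave -0.14 for Col18a1 in fibroblast-like cells of set 3 and -0.57 for Lamc1 in endothelium-like cells of set 2. Thinned counts of members in set 1 were 2 higher in fibroblast-like (7 unthinned), 0 higher and 0 lower in smooth muscle-like (7 and 3), and 1 higher and 0 lower in endothelium-like cells (7 and 2), and 1 was lower in fibroblast-like cells of set 2 (0 unthinned). With each cell classed alone, Col18a1 in endothelium-like cells of set 2 was -0.061 (0.70 by cluster), and 1 member was lower in fibroblast-like and 1 in smooth muscle-like cells of set 1. The cause was not tested. Without the highest 5% of doublet scores 1 member was lower in fibroblast-like cells of set 1. With at least 100 UMIs over both classes, 4 were higher in smooth muscle-like cells of set 1, since fewer rows were tested. With each cell weighted equally, chosen after seeing the data, Col18a1 in fibroblast-like cells of set 3 was -0.10, and 1 member was lower there in set 2. Without the Upk1a cluster, also chosen after seeing the data, Col18a1 in fibroblast-like cells over epithelium-like cells of set 1 was 0.32. At cluster resolution 1.0, 44 ratios over epithelium-like cells moved beyond their interval, 46 did not and 0 changed sign, while 37 levels moved and 83 did not. Smooth muscle-like cells of set 1 fell from 74 to 28, and the log2 ratio of Col15a1 there went from 4.41 to 0.98, that of Lama2 from 3.39 to 1.18. The ratios of fibroblast-like over epithelium-like cells of set 1 went from 5.41 to 2.88 for Col15a1 and from 6.67 to 4.22 for Lama4. Without integration, set 1 kept 6 fibroblast-like and 3 smooth muscle-like cells, which with a few elsewhere left 57 values that could not be given, and smooth muscle-like cells of set 2 fell from 1633 to 103. The 25 leukocyte-like cells of set 2 set its background.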
